A study of Mus musculus with 8 samples.

Results

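The semaphorins, plexins and neuropilins were measured as 31 genes in retinas of *dmbo* and WT mice, out of 21584 genes with a symbol on the array. They were taken by symbol, as the semaphorins of classes 3 to 7, the plexins of classes A to D and both neuropilins, and comprised 20 semaphorins, 9 plexins and 2 neuropilins on 33 of 28350 probe sets. Each gene was represented by its probe set with the highest mean signal. The *dmbo* mice were homozygous for a nonsense mutation of the homeobox gene *Hmx1*, which is present in every cell of the animal. They came from a line that had been backcrossed to C57BL/6J mice, which also removed an *Rd1* mutation, whereas the WT mice were C57BL/6J. There were 4 retinas in each group, taken at postnatal day 15 from different animals by the methods, and RNA of each whole retina was hybridized to 1 Affymetrix Mouse Gene 1.0 ST array. The values are log2 signals after RMA, a procedure that corrects the background, equalizes the distribution of signals over the arrays and combines the probes of each probe set. Of the 31 genes, 26 had a mean signal at or above the median of all probe sets.

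Semaphorins are extracellular or membrane-bound guidance proteins that share the sema domain, and most act by binding plexins, whose cytoplasmic part regulates small GTPases and thereby the cytoskeleton of the growing axon or dendrite. Secreted semaphorins of class 3 mostly bind a neuropilin, which pairs with a plexin that carries the signal. In the mouse retina, class 5 and class 6 semaphorins and plexins A are known for confining the processes of inner retinal neurons to their proper layers, and class 3 semaphorins and plexin D1 for shaping the retinal vessels.

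*Hmx1* itself had a log2 signal of 8.28, 8.13, 8.18 and 8.42 in *dmbo* replicates 1 to 4, against 8.25, 8.24, 8.21 and 8.32 in WT replicates 1 to 4 (limma adjusted p = 1.0), and since a nonsense mutation need not change the level of its transcript, this does not check the labels. The arrays differed in transcripts that do not belong to the neural retina. The mean log2 signal of 21 lens genes lay between 8.24 and 11.86 in *dmbo* arrays and between 7.65 and 8.75 in WT arrays (exact permutation test, two-sided p = 0.0571), with *dmbo* replicate 4 the highest. Among the WT arrays replicate 4 was the highest. *Dmbo* replicates 1 and 2 carried *Xist*, which the inactive X chromosome transcribes, together with Y-linked transcripts, *dmbo* replicates 3 and 4 and WT replicate 2 carried *Xist* alone, and WT replicates 1, 3 and 4 Y-linked transcripts alone. Whether *dmbo* replicates 1 and 2 each came from a single mouse is therefore not known. Since every *dmbo* array carried *Xist* and, of the WT arrays, replicate 2 alone did, *Xist* and genotype were partly confounded. The mean log2 signal of 15 genes that define the neural retina, rhodopsin among them, lay between 11.37 and 11.50 in *dmbo* and between 11.47 and 11.55 in WT arrays (exact permutation test, two-sided p = 0.0571). Of these 15, 12 were lower in *dmbo*, 4 of them at an unadjusted p under 0.05 from limma, as was 1 of the 3 that were higher, and *Calb1*, which encodes the calcium-binding protein calbindin, fell (log2 fold change -0.41, limma adjusted p = 0.0623). Of 10 microglia genes, 9 were higher in *dmbo*, 3 of them at an unadjusted p under 0.05, and none passed.

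Only *Sema7a* passed the test across all probe sets, and the plexins and neuropilins as receptors did not. *Sema7a*, which encodes a semaphorin that is anchored in the membrane by a lipid, rose in *dmbo* retinas. At an adjusted p under 0.1 from limma, 1 of the 31 genes passed, against 0.78% of all probe sets. At the threshold of the study, which also asks for a change of at least 1.2-fold, none of the 31 passed, against 0.638% of all probe sets. At an unadjusted p under 0.05 from limma there were 6 of 31 genes (19.4%), against 7.65% of all probe sets. Of these 4 were higher and 2 lower in *dmbo*, against 3.87% higher and 3.78% lower among all probe sets. When only probe sets at or above the median signal were fitted, the share of all of them was larger, at 12.6%, against 5 of 26 genes. No test was made of the group of genes as a whole. Of the 31 log2 fold changes 16 were positive and 15 negative, and their median was 0.0071, against 0.0056 over all probe sets. In 22 of the 31 genes the log2 fold change was under 0.1 in size.

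**Figure D1:**
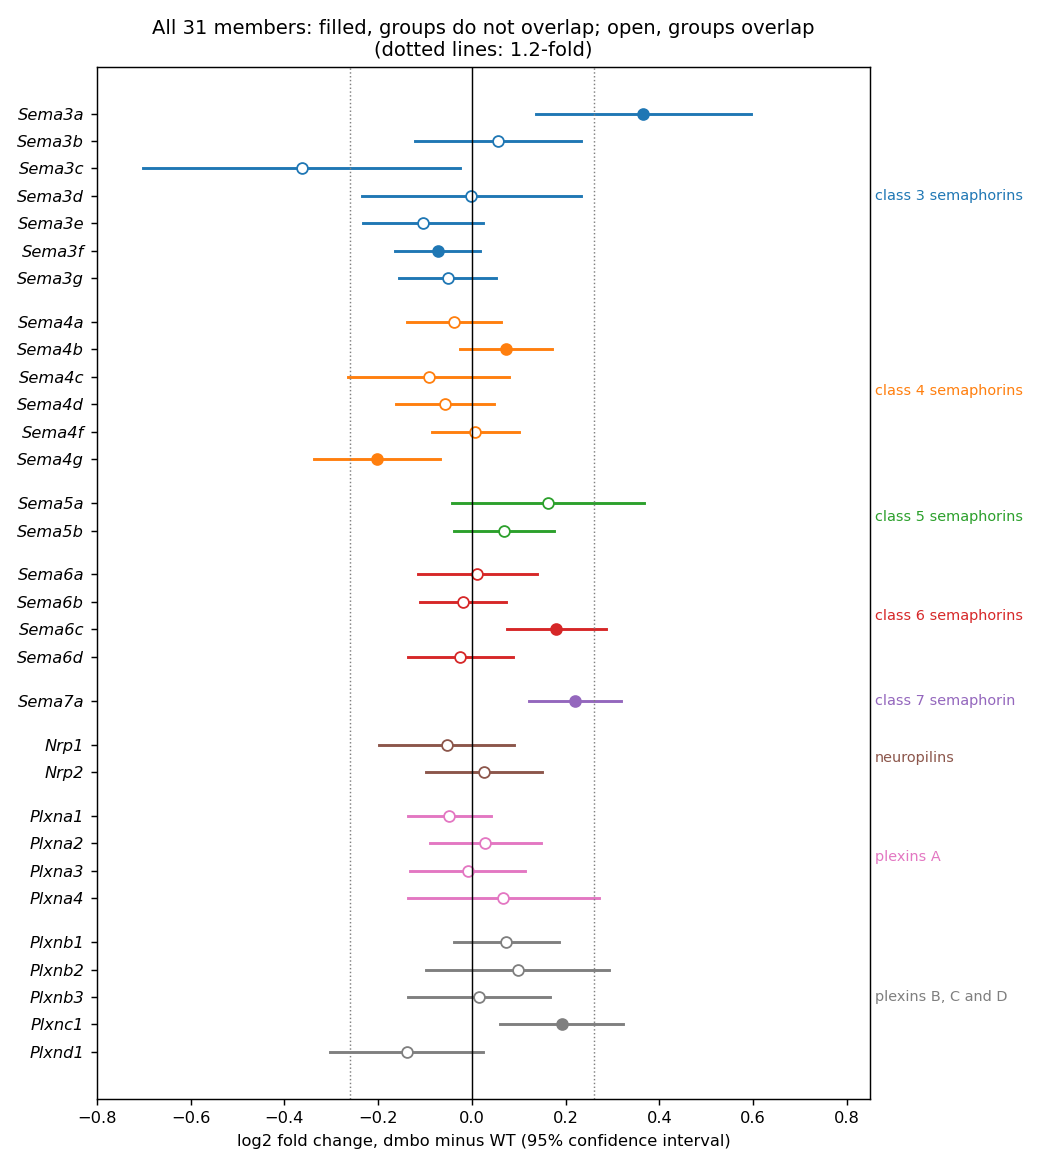
Log2 fold change of each of the 31 genes, *dmbo* minus WT (horizontal axis), with the 95% confidence interval from limma as a line and the genes grouped by class from top to bottom. Dotted lines mark 1.2-fold, filled points mark the 7 genes whose groups do not overlap, and the intervals of *Sema7a*, *Sema6c*, *Sema3a*, *Plxnc1*, *Sema4g* and *Sema3c* leave out 0.

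*Sema7a* had the most even signal among the *dmbo* arrays of the genes that stood apart. Probe set 10585778 covers it on chromosome 9, from 57787942 to 57810672. The log2 signal was 9.85, 9.91, 9.90 and 9.90 in *dmbo* replicates 1 to 4, against 9.74, 9.69, 9.64 and 9.61 in WT replicates 1 to 4. All 4 *dmbo* values lay above all 4 WT values. The log2 fold change was 0.22 (standard error, SE, 0.04, 95% confidence interval, CI, 0.12 to 0.32, limma adjusted p = 0.0867), a change of 1.17-fold. The call rested on all 8 arrays. Without any single one of them the log2 fold change lay between 0.20 and 0.24, with an adjusted p of 0.119 to 0.264 from limma. It was 0.23 (limma adjusted p = 0.639) without *dmbo* replicates 1 and 2, 0.19 (limma adjusted p = 0.919) with the *Xist* signal of each array as a covariate and 0.25 (limma adjusted p = 0.0886) with the lens signal as a covariate. Over all probe sets 30 passed with the *Xist* covariate and 919 with the lens covariate, against 221 in the main setting. Between 87 and 245 passed without a single array, and 63 without *dmbo* replicates 1 and 2. Only the fit without *dmbo* replicate 4 gave more calls than the main setting. The loss of the *Sema7a* call in the smaller fits thus came with fewer calls over all probe sets in most of them. The part of the retina and microglia genes described above in the rise of *Sema7a* was not tested.

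*Plxnc1*, which encodes the plexin that binds the protein of *Sema7a*, was also higher in all 4 *dmbo* arrays, without passing the test. It lies on chromosome 10 from 94255931 to 94407212. Its signals on the log2 scale were 9.15, 9.19, 9.37 and 9.15 in *dmbo* replicates 1 to 4, against 9.02, 9.09, 9.01 and 8.98 in WT replicates 1 to 4. The lowest *dmbo* value lay 0.06 above the highest WT value, and *dmbo* replicate 3 was the highest. The difference on the log2 scale was 0.19 (SE 0.06, 95% CI 0.06 to 0.32, limma adjusted p = 0.342). With the lens signal as a covariate it was 0.32 (limma adjusted p = 0.0527), past the threshold. In that fit 919 of all probe sets passed, against 221 in the main setting. With the *Xist* signal as a covariate the difference in *Plxnc1* was 0.12 (limma adjusted p = 1.0), and without *dmbo* replicate 3 it was 0.14.

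Of the transmembrane semaphorins, *Sema6c* was higher and *Sema4g* lower in all *dmbo* arrays, again without passing the test. *Sema6c*, of the class that binds plexins A, lies on chromosome 3 from 94964424 to 94977946. On the log2 scale it measured 8.49, 8.51, 8.64 and 8.57 in *dmbo* replicates 1 to 4, against 8.40, 8.41, 8.37 and 8.32 in WT replicates 1 to 4. The groups did not overlap, and the log2 fold change was 0.18 (SE 0.05, 95% CI 0.08 to 0.29, limma adjusted p = 0.221). *Sema4g*, a class 4 semaphorin, lies on chromosome 19 from 45063796 to 45077887. The arrays gave log2 signals of 9.06, 9.09, 9.01 and 9.16 in *dmbo* replicates 1 to 4, against 9.42, 9.28, 9.26 and 9.17 in WT replicates 1 to 4. The groups were separated by 0.011 only, between *dmbo* replicate 4 and WT replicate 4. *Dmbo* minus WT gave a log2 fold change of -0.20 (SE 0.06, 95% CI -0.34 to -0.07, limma adjusted p = 0.323).

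*Sema3a* and *Sema3c* had the largest differences in size, in opposite directions. Both encode secreted semaphorins that act through neuropilins, and the protein of *Sema3a* is the classical repellent of growing axons. *Sema3a* lies on chromosome 5 from 13396784 to 13602565. Log2 signals were 8.50, 8.35, 8.50 and 8.90 in *dmbo* replicates 1 to 4, against 8.14, 8.25, 8.21 and 8.19 in WT replicates 1 to 4. The groups did not overlap, and *dmbo* replicate 4, the array with the highest lens signal, was the highest. The log2 fold change was 0.37 (SE 0.10, 95% CI 0.14 to 0.60, limma adjusted p = 0.274). It was 0.25 (limma adjusted p = 0.118) without *dmbo* replicate 4, 0.23 (limma adjusted p = 0.314) without *dmbo* replicates 1 and 4 and 0.16 with the lens signal as a covariate. *Sema3c* lies on chromosome 5 from 17080634 to 17236088. Its log2 signals were 7.80, 7.53, 7.92 and 7.62 in *dmbo* replicates 1 to 4, against 7.96, 7.85, 7.94 and 8.56 in WT replicates 1 to 4. The groups overlapped, and WT replicate 4 stood above the other 7 arrays. The difference on the log2 scale was -0.36 (SE 0.15, 95% CI -0.70 to -0.02, limma adjusted p = 0.604), -0.20 without WT replicate 4 and -0.16 with the *Xist* signal as a covariate.

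**Figure D2:**
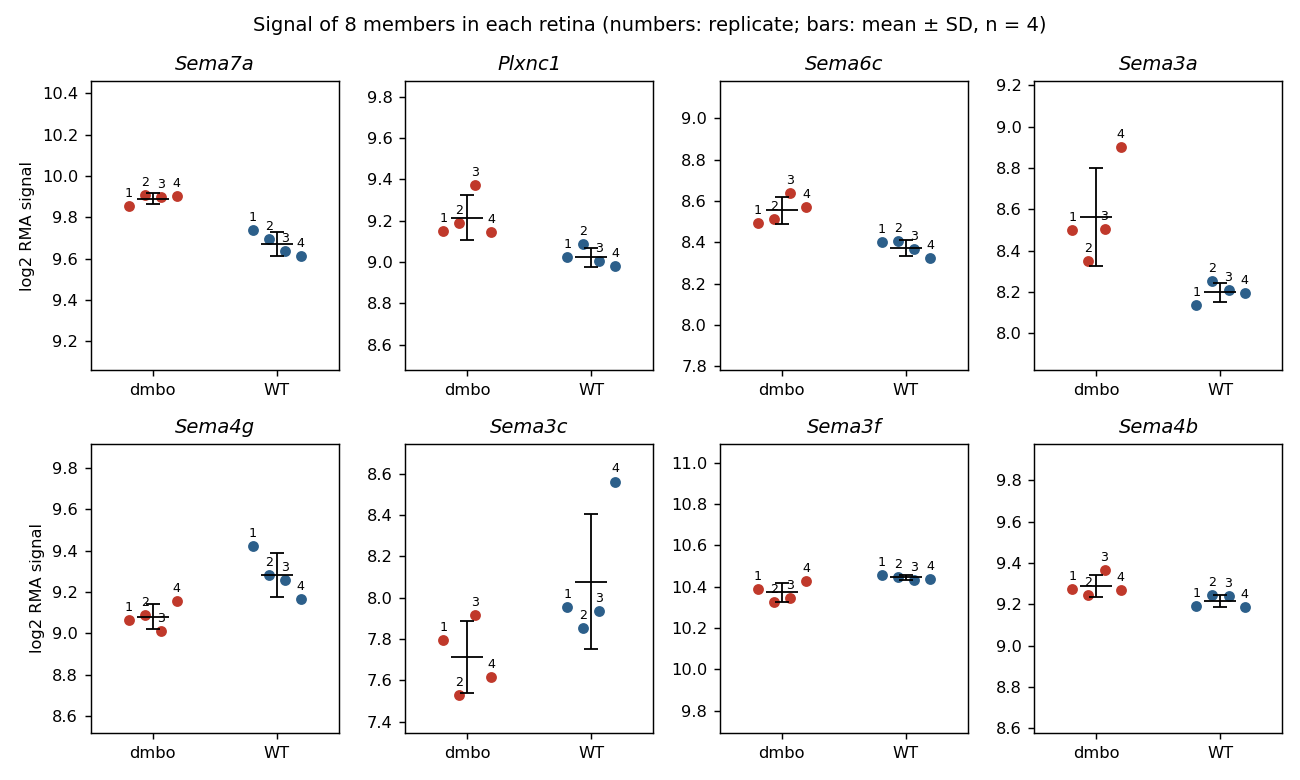
Log2 RMA signal (vertical axis, the same span in every panel) of 8 genes in the 4 *dmbo* and the 4 WT arrays. Points are arrays with their replicate numbers and bars are the mean ± SD (n = 4). *Sema7a*, *Plxnc1*, *Sema6c* and *Sema3a* sit higher in all *dmbo* arrays, *Sema4g* lower, *Sema3c* overlaps, and *Sema3f* and *Sema4b* differ by under 0.1.

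*Sema3f* was predicted by the study as a target of *Hmx1*, in a promoter screen meant to include genes of embryonic eye development. In its luciferase assay in mouse neuroblastoma cells, *Hmx1* lowered the activity of the *Sema3f* promoter. The retinas here were of postnatal day 15, and earlier stages were not measured. *Sema3f* differed little between these *dmbo* and WT retinas. Its product is a secreted semaphorin that binds neuropilin 2 and repels axons and vessel sprouts. Probe set 10596747 covers it on chromosome 9, from 107583833 to 107612806. The log2 signal was 10.39, 10.33, 10.35 and 10.43 in *dmbo* replicates 1 to 4, against 10.46, 10.45, 10.43 and 10.44 in WT replicates 1 to 4. All *dmbo* values lay below all WT values, by a gap of 0.0062 between the nearest arrays. The means were 10.37 ± 0.05 in *dmbo* and 10.45 ± 0.01 in WT retinas (SD, n = 4 each). *Dmbo* minus WT gave a log2 fold change of -0.07 (standard error 0.04, 95% confidence interval -0.16 to 0.02), with an adjusted p of 0.783 from limma and an unadjusted p of 0.104. The exact permutation test over the 8 arrays gave a two-sided p of 0.0286, the smallest that 70 assignments allow, which every gene with groups that do not overlap reaches. The interval reaches no higher than 0.02 on the log2 scale. The log2 fold change lay between -0.12 and -0.06 under 18 alternatives, with an adjusted p from 0.2 to 1 from limma.

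HMX1 binds the sequence CAAGTG, and this motif was looked for in the promoters of the genes described here. The RefSeq promoter table (GRCm38.p6), which holds 250 bases before and 50 bases after each start site, had 37 promoters of 26 of the 31 genes. *Plxna1*, *Plxna4*, *Sema3b*, *Sema3f* and *Sema6a* had no entry. CAAGTG or its reverse complement CACTTG was present in 3 of these 37 promoters (8.11%), against 13.6% of all 32851 promoters of this length, and none of the 37 held more than 1 match, against 395 of the 32851. The 5 genes with no entry were not searched. The screen of the study reached further past the start site and asked for pairs of sites within a set range of distances. Counts of single matches here therefore do not repeat that screen. *Sema3f*, which the study lists among genes with several such pairs, was not searched here. The shares above hold for the searched stretches only. The 3 matches are given in windows of 30 bases, 5′ to 3′ on the strand of the gene, with the motif in capitals, since they are the places in these promoters where the sequence known to bind HMX1 occurs. All 3 read CACTTG, at position -80 from the start site in *Sema3c*, across the start site in 1 of 2 promoters of *Sema4b* and at base 30 after it in 1 of 3 promoters of *Sema4d*.
Sema3c, chr5:17574724-17574753, plus strand: ccggcgcccggcCACTTGccattcactccg
Sema4b, chr7:80198575-80198604, plus strand: agcctgcgattcCACTTGagcaacctgagc
Sema4d, chr13:51748764-51748793, minus strand: gggcagaggcccCACTTGaaggtagagtgg
A match is a stretch of letters and not a measured binding site. In these 3 genes *dmbo* and WT differed by -0.36, 0.07 and -0.06 on the log2 scale in this order, and none passed the test. No match was found for *Sema7a*, the gene that rose.

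The remaining class 3 semaphorins gave no difference that passed the test. *Sema3e*, whose protein binds plexin D1 without a neuropilin and guides vessels, had a log2 signal of 8.74, 8.92, 8.90 and 8.74 in *dmbo* replicates 1 to 4, against 8.85, 8.99, 8.93 and 8.95 in WT replicates 1 to 4. The groups overlapped, and the log2 fold change was -0.10 (95% CI -0.23 to 0.02, limma adjusted p = 0.779). *Sema3g* had a log2 fold change of -0.05 and *Sema3b* one of 0.06. *Sema3d*, with a log2 fold change of -0.0013, had its highest values in *dmbo* replicate 4 (7.53) and WT replicate 4 (7.60), against 7.19 to 7.33 in the other 6 arrays. Both had the highest lens signal in their group, and also the highest mean of 14 pigment epithelium genes (9.15 and 9.12). *Dmbo* replicates 1 and 2 had more lens signal (10.66 and 9.58) than WT replicate 4 (8.75), with *Sema3d* at 7.20 and 7.19. The part of either tissue in *Sema3d* was not tested.

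*Sema3a*, *Sema3c*, *Sema3d* and *Sema3e* lie on chromosome 5, the chromosome of *Hmx1*, and were the only ones of the 31 genes there. *Hmx1* lies from 35731766 to 35735521. The probe set of *Sema3c* ends 18.5 Mb before it, that of *Sema3e* 21.5 Mb, that of *Sema3a* 22.1 Mb and that of *Sema3d* 23.1 Mb. Of the 414 probe sets within 25 Mb of *Hmx1*, 2 passed at an adjusted p under 0.1 from limma (0.483%) and 20 had an unadjusted p under 0.05 (4.83%). Both shares are below those of all probe sets. How much DNA of the original strain remained beside *Hmx1* after the backcross was not stated in the sources read.

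The other class 4 semaphorins overlapped or lay close together. *Sema4a*, which is needed for the survival of photoreceptors in the mouse, had a log2 signal of 8.21, 8.24, 8.28 and 8.25 in *dmbo* replicates 1 to 4, against 8.27, 8.37, 8.27 and 8.23 in WT replicates 1 to 4. The log2 fold change was -0.04 (95% CI -0.14 to 0.06, limma adjusted p = 0.962). *Sema4b* was at 9.27, 9.25, 9.37 and 9.27 in *dmbo* replicates 1 to 4, against 9.19, 9.24, 9.24 and 9.19 in WT replicates 1 to 4. Its groups did not overlap, but the gap was 0.0031 and the log2 fold change 0.07 (limma adjusted p = 0.818). *Sema4d*, the ligand of plexin B1, and *Sema4c* had log2 fold changes of -0.06 and -0.09. In *Sema4c* WT replicate 4 was at 8.33, against 8.56 to 8.58 in the other 3 WT arrays. *Sema4f* had a log2 signal between 8.01 and 8.08 in *dmbo* arrays and between 8.02 and 8.11 in WT arrays.

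The semaphorins of classes 5 and 6 that pattern the layers of the inner retina did not pass the test. *Sema5a* had a log2 signal of 9.91, 9.93, 9.97 and 10.32 in *dmbo* replicates 1 to 4, against 9.91, 9.94, 9.88 and 9.75 in WT replicates 1 to 4. The difference rested mostly on *dmbo* replicate 4, since the log2 fold change was 0.16 with it (95% CI -0.04 to 0.37, limma adjusted p = 0.789) and 0.07 without it. *Sema5b* had a log2 fold change of 0.07 (limma adjusted p = 0.869) and 0.03 without the same array. *Sema6a*, the partner of plexins A2 and A4 in the retina, had a log2 signal of 10.21, 10.27, 10.28 and 10.41 in *dmbo* replicates 1 to 4, against 10.31, 10.35, 10.27 and 10.18 in WT replicates 1 to 4. The groups overlapped, with a 95% confidence interval of -0.11 to 0.14 for the log2 fold change (limma adjusted p = 0.995). *Sema6b* and *Sema6d* had intervals of -0.11 to 0.07 and of -0.14 to 0.09. The 2 probe sets of *Sema6b* held equal values at equal positions and are marked in the deposited table as binding related sequences too.

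Among the receptors, the 4 plexins A and both neuropilins had log2 fold changes between -0.05 and 0.07. Plexins A1 and A3 are the receptors through which class 5 semaphorins act in the mouse retina. *Plxna1* had a log2 signal of 9.60, 9.62, 9.58 and 9.60 in *dmbo* replicates 1 to 4, against 9.64, 9.69, 9.64 and 9.61 in WT replicates 1 to 4. The groups overlapped by a single pair of arrays, with a log2 fold change of -0.05 (95% CI -0.14 to 0.04, limma adjusted p = 0.913). *Plxna2* and *Plxna3* had 95% confidence intervals of -0.09 to 0.15 and of -0.13 to 0.11. *Plxna4* was highest in *dmbo* replicate 4 (9.93), against 9.53 to 9.62 in the other *dmbo* arrays and 9.49 to 9.74 in WT arrays. *Nrp1*, the neuropilin that serves *Sema3a* and also the growth factor VEGF, had a log2 signal of 8.52, 8.51, 8.69 and 8.40 in *dmbo* replicates 1 to 4, against 8.49, 8.60, 8.60 and 8.64 in WT replicates 1 to 4. Its 95% confidence interval was -0.20 to 0.09 (limma adjusted p = 0.963). *Nrp2*, the neuropilin that serves *Sema3f*, had an interval of -0.10 to 0.15 (limma adjusted p = 0.984).

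Of the plexins B and D, none passed the test. *Plxnd1*, the plexin of vessel cells, had a log2 signal of 8.42, 8.28, 8.47 and 8.59 in *dmbo* replicates 1 to 4, against 8.60, 8.52, 8.70 and 8.49 in WT replicates 1 to 4. The groups overlapped, and the log2 fold change was -0.14 (95% CI -0.30 to 0.02, limma adjusted p = 0.757). It was -0.085 without *dmbo* replicate 2 and -0.049 without *dmbo* replicates 1 and 2. The mean log2 signal of 14 genes of vessel cells lay between 8.78 and 8.91 in *dmbo* arrays and between 8.86 and 9.001 in WT arrays, and its part in *Plxnd1* was not tested. In whole retinas fewer cells of a type and less RNA per cell cannot be told apart. *Plxnb2* was at 10.37 in *dmbo* replicate 4, against 9.93 to 10.01 in the other 7 arrays. *Plxnb1* had 2 probe sets, on opposite strands, that differed in the size of the difference. The brighter lies on the plus strand of chromosome 9 from 108998106 to 109022431, with a log2 fold change of 0.07 (limma adjusted p = 0.865). The dimmer lies on the minus strand from 108997777 to 109000310, across the start of the first, with 0.20 (limma adjusted p = 0.282) and groups that did not overlap. Being on the opposite strand, it need not measure the same transcript. *Plxnb3* had a 95% confidence interval of -0.14 to 0.17.

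Groups that do not overlap were found in 7 of the 31 genes (22.6%), against 5.39% of all probe sets. They were *Sema7a*, *Plxnc1*, *Sema6c*, *Sema3a* and *Sema4b*, higher in *dmbo* (5 genes, against 2.46% of all probe sets), and *Sema4g* and *Sema3f*, lower in *dmbo* (2 genes, against 2.93%). These shares of all probe sets were not computed for the brighter probe sets alone. The gap between the nearest arrays of the 2 groups was largest in *Sema7a*, at 0.11, and under 0.02 in *Sema4g*, *Sema3f* and *Sema4b*. The spread within a group was no larger than over all probe sets, with a median SD over the 31 genes of 0.07 in *dmbo* and 0.06 in WT arrays, against 0.09 and 0.07 over all probe sets in *dmbo* and WT arrays. *Dmbo* replicate 4 held the highest value of 11 of the 31 genes and WT replicate 4 the lowest value of 10. These were the arrays with the highest lens signal in their groups, though WT replicate 4 (8.75) was below *dmbo* replicates 1 and 2 (10.66 and 9.58). They also had the highest mean log2 signal of 14 pigment epithelium genes, at 9.15 and 9.12, against 8.56 to 8.93 in the other arrays. *Dmbo* replicate 4 had the lowest mean of 12 ganglion cell genes, at 9.55. The part of lens, pigment epithelium or ganglion cell RNA in these genes was not tested directly. The mean log2 signal of 5 astrocyte genes also did not overlap, at 8.59 to 8.82 in *dmbo* and 8.38 to 8.57 in WT arrays (exact permutation test, two-sided p = 0.0286). Of these 5 genes 4 were higher in *dmbo*, and *Pax2* was lower (log2 fold change -0.02). *Aqp4*, the water channel of glia, rose and alone passed (limma adjusted p = 0.0727). *Gfap* and *Pdgfra* overlapped, and *Pdgfra* was at 9.49 in *dmbo* replicate 4, against 8.59 to 8.73 in the other *dmbo* arrays. The part of the astrocyte genes in the 7 genes was not tested. In the fit with the lens signal as a covariate, which is partly confounded with genotype, 2 of the 31 genes passed at an adjusted p under 0.1 from limma, *Sema7a* and *Plxnc1*. In this fit 919 of all probe sets passed, against 221 in the main setting. An unadjusted p under 0.05 was reached by 22% of all probe sets and by 6 of the 31 genes. With the *Xist* signal as a covariate 1 of the 31, *Sema7a*, had an unadjusted p under 0.05 from limma, and none passed. This covariate is also partly confounded with genotype, and over all probe sets 30 passed with it, against 221 in the main setting.

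**Figure D3:**
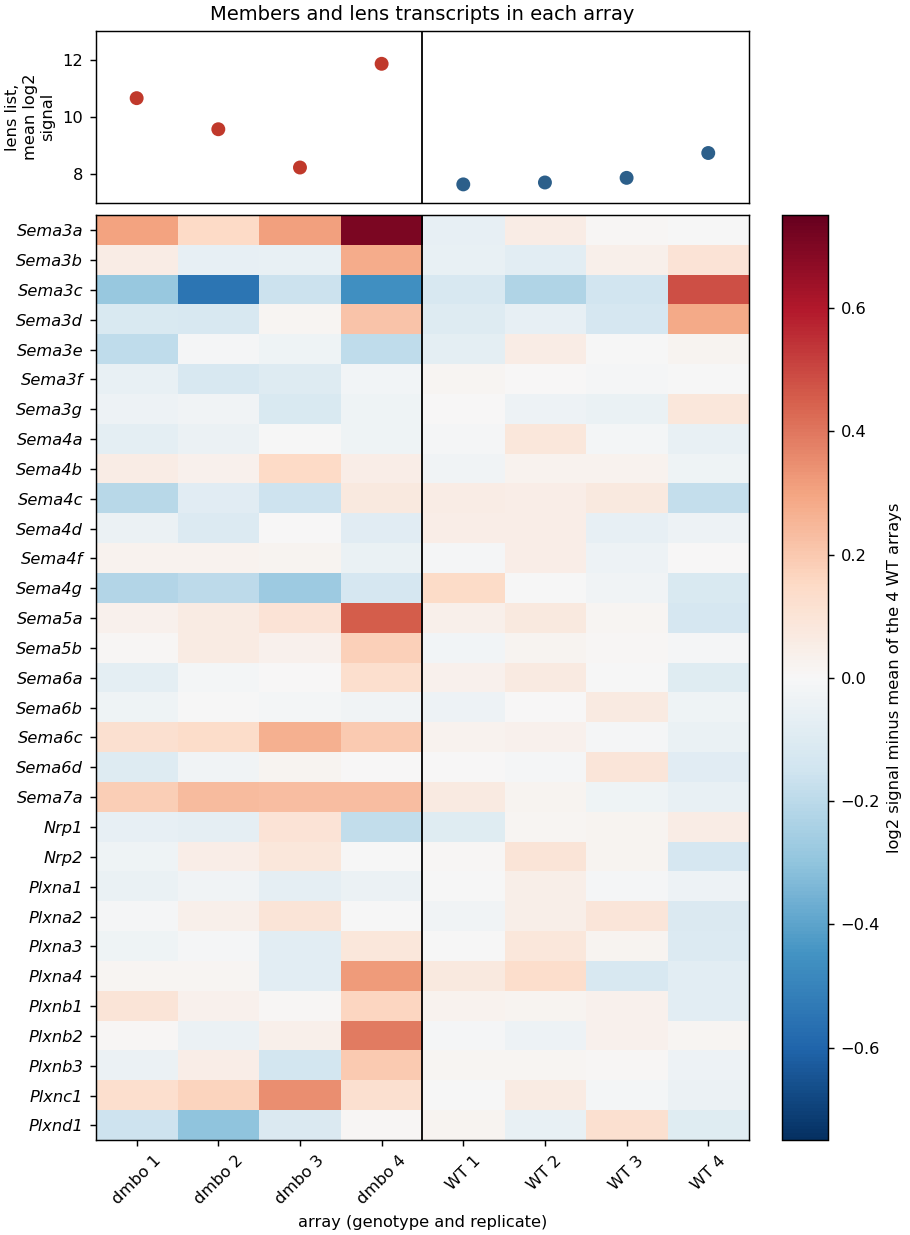
Lower panel, log2 signal of each of the 31 genes (rows, by class) in each array (columns) minus the mean of the 4 WT arrays, from blue (lower) to red (higher). Upper panel, mean log2 signal of 21 lens genes in the same arrays. *Sema3a*, *Sema5a*, *Plxna4* and *Plxnb2* are highest in *dmbo* replicate 4, where the lens signal is 11.86, while *Sema7a* is nearly even over the *dmbo* arrays.

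Genes that act beside or downstream of semaphorins were examined from a list of 54 co-receptors, collapsin response mediator proteins, GTPases, their regulators and kinases, of which 53 were measured. *Dpysl3*, a collapsin response mediator protein, rose in *dmbo* retinas and no other gene of the list passed at an adjusted p under 0.1 from limma, 1 of 53, against 0.78% of all probe sets. At an unadjusted p under 0.05, 6 were higher and 2 lower in *dmbo* (15.1%), against 7.65% of all probe sets, and the median log2 fold change was 0.0094. Among probe sets at or above the median signal, fitted alone, the share was 12.6%. Groups did not overlap in 6 of the 53, *Dpysl3*, *Nrcam* and *Tyrobp* higher and *Crmp1*, *Dpysl5* and *L1cam* lower in *dmbo*, against 5.39% of all probe sets. *Dpysl3* had a log2 signal of 11.63, 11.63, 11.68 and 11.62 in *dmbo* replicates 1 to 4, against 11.43, 11.41, 11.47 and 11.45 in WT replicates 1 to 4. The groups did not overlap, with a log2 fold change of 0.20 (SE 0.04, limma adjusted p = 0.077). Leaving out *dmbo* replicate 4 kept it past the threshold (limma adjusted p = 0.0804), and leaving out any other single array did not, with adjusted p up to 0.246. The following 3 genes were named after their values were seen. *Nrcam*, an adhesion protein that joins neuropilin complexes, was at 10.39, 10.44, 10.49 and 10.49 in *dmbo* replicates 1 to 4, against 10.30, 10.30, 10.25 and 10.24 in WT replicates 1 to 4, with a log2 fold change of 0.18 (limma adjusted p = 0.16). *Crmp1*, of the same protein family as *Dpysl3*, was at 10.38, 10.40, 10.45 and 10.32 in *dmbo* replicates 1 to 4, against 10.63, 10.64, 10.59 and 10.47 in WT replicates 1 to 4, with a log2 fold change of -0.19 (limma adjusted p = 0.235). *Dpysl5*, also of this family, was at 9.76, 9.78, 9.80 and 9.72 in *dmbo* replicates 1 to 4, against 9.91, 9.95, 9.85 and 9.86 in WT replicates 1 to 4, with a log2 fold change of -0.13 (limma adjusted p = 0.398). None of the 3 passed the test. *Crmp1* lies on chromosome 5 at 1.9 Mb after *Hmx1*, and *Dpysl5* at 4.63 Mb before it. With the lens signal as a covariate *Crmp1* had a log2 fold change of -0.10 and *Dpysl5* one of -0.08.

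**Figure D4:**
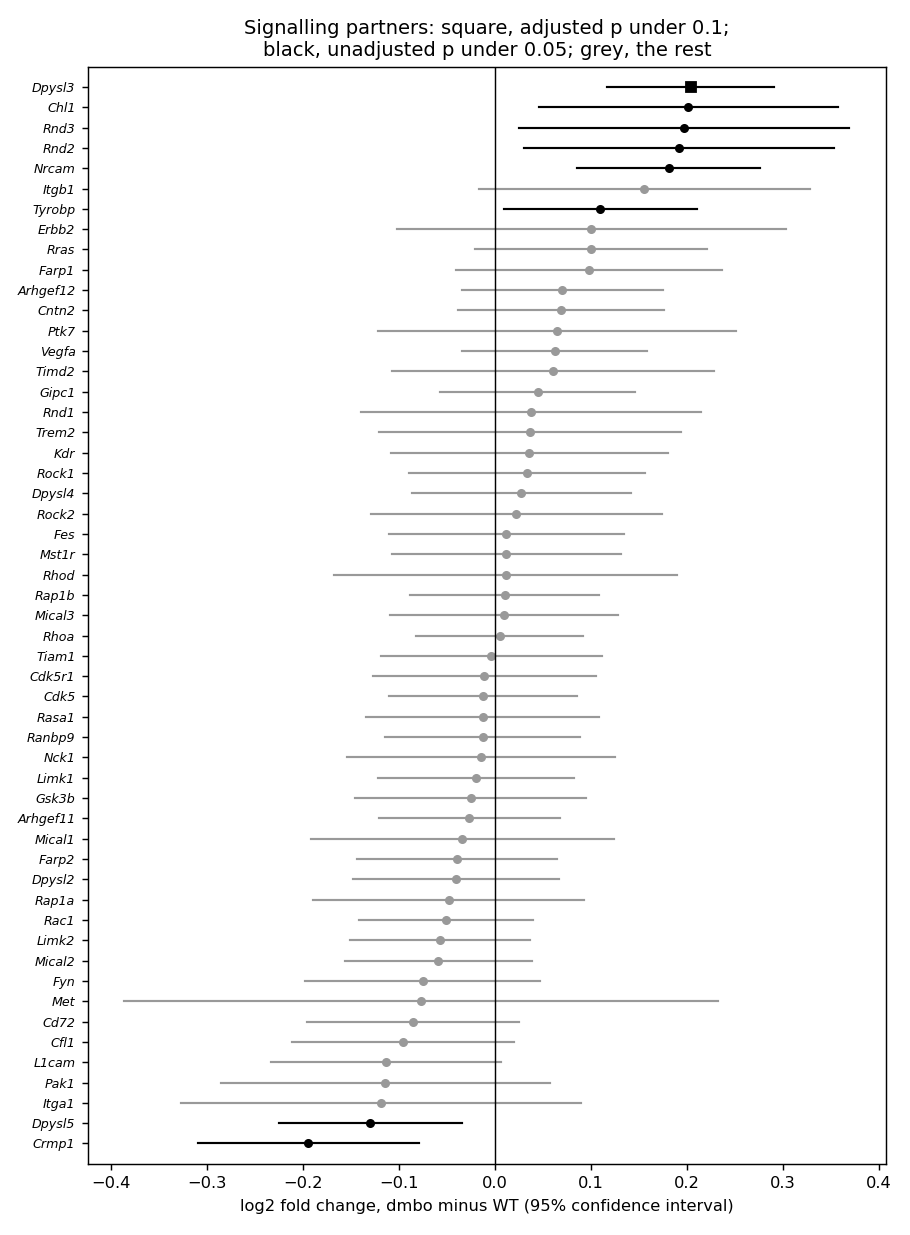
Log2 fold change, *dmbo* minus WT (horizontal axis), of the 53 measured genes that act beside or downstream of semaphorins, with 95% confidence intervals from limma. *Dpysl3*, the square at 0.20, passed at an adjusted p under 0.1, and black points have an unadjusted p under 0.05.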

How the data were processed

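RNA of 4 *dmbo* and 4 WT retinas was hybridized to Affymetrix Mouse Gene 1.0 ST arrays. The deposited log2 values were made by the authors with RMA (version not given in the sources used here), and the 2 deposited tables hold equal values. The authors' own log2 fold changes, signed fold changes (score), p-values and FDR values, made with limma, are also deposited and were not used. Positions are those of the deposited table, which names no genome build. Using limma 3.58.1 (R 4.3.3), the difference of *dmbo* and WT was fitted for 28350 probe sets with moderated variances, and p-values were adjusted over all of them by the method of Benjamini and Hochberg. On simulated arrays of 28350 probe sets the fit recovered 90 of 100 probe sets changed 1.5-fold and 97 of 100 changed 2-fold. There were 17 false calls. Smaller changes, such as the 1.17-fold of *Sema7a* and the 1.29-fold of *Sema3a*, were not simulated. The simulation therefore does not show how often changes of the sizes found here would be recovered. The number of arrays limits the precision.

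The genes, lists and alternatives were chosen with earlier results of these data known. Among the 31 genes, values of every array are given for *Sema3f*, for genes with an adjusted p under 0.1, groups that do not overlap or one of the 6 lowest p-values, and, where the text turns on them, for genes with a known role in the layers or vessels of the retina. Of the signalling partners, those past the test were named, and others where the text says so. The alternatives were median centring, cyclic loess, a filter at the median signal, every probe set of a gene, leaving out single arrays or *dmbo* replicates 1 and 2, weighting the arrays, a robust prior with a trend, other fold minimums, blocking on the replicate number, and a covariate (lens mean or *Xist* signal). Leaving out *dmbo* replicates 1 and 4 was added after the data were seen. The plots were drawn with matplotlib 3.10.9.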

Additional observations from a re-analysis of the deposited data

Results flagged for a closer look

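In 62 sets of 4 arrays (31 genes in 2 groups), 9 held an array whose gap to its nearest neighbour exceeded the 95% critical share of the range of the set in Dixon's test, where chance flags about 1 in 20. WT replicate 4 was the array in 5 of them. It was the highest WT array in *Sema3c* (8.56, against 7.85 to 7.96 in the others) and in *Sema3d* (7.60, against 7.19 to 7.25). It was the lowest in *Sema4c* (8.33, against 8.56 to 8.58), in *Plxnb1* (9.83, against 9.93 to 9.94) and in *Plxnb3* (7.32, against 7.37 in each of the others). *Dmbo* replicate 4 was the highest *dmbo* array in *Sema5a* (10.32, against 9.91 to 9.97) and the lowest in *Sema4f* (8.01, against 8.08 in each of the others). *Dmbo* replicate 1 was the lowest *dmbo* array in *Sema7a* (9.85, against 9.90 to 9.91), where all *dmbo* arrays still lay above all WT arrays. *Dmbo* replicate 3 was the lowest *dmbo* array in *Sema3g* (8.03, against 8.11 to 8.12).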

How the results depend on the processing

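The 7 genes whose groups do not overlap kept their direction under all 18 alternatives that were fitted. Most of these could not have turned it. Without overlap, leaving out or weighting arrays cannot change the sign. The prior, the filter and the replicate block leave the log2 fold change as it was. Only median centring, cyclic loess and the covariates could have turned the direction. Of the 31 genes, 0 passed at an adjusted p under 0.1 from limma, against 1 in the main setting, with median centring, the replicate block, the *Xist* covariate, without *dmbo* replicates 1 and 2, without *dmbo* replicates 1 and 4 and without any single array (0 to 0), with an unadjusted p under 0.05 for 6, 6, 1, 5 and 7 genes in the first 5 of these. There were 2 with array weights, with the lens covariate and with the filter at the median signal. With a minimum of 1.2-fold, 1 passed with the lens covariate against 0 otherwise, and 1 also with a minimum of 1.1-fold or none. At an unadjusted p under 0.05 there were 5 to 7 genes without single arrays and 1 with the *Xist* covariate, while array weights gave 4 higher and 5 lower in *dmbo* and leaving out *dmbo* replicates 1 and 2 gave 5 higher and 0 lower, against 4 higher and 2 lower in the main setting. Of the 53 signalling partners, 2 passed with array weights or cyclic loess, 3 with the filter or the trended and robust prior, 4 with the lens covariate, 0 with median centring, the replicate block, the *Xist* covariate, without *dmbo* replicates 1 and 2 and without *dmbo* replicates 1 and 4, and 0 to 1 without single arrays. At an unadjusted p under 0.05 there were 4 with the *Xist* covariate and 5 to 8 without single arrays. Calls over all probe sets moved as well. Against 221 in the main setting, 614 passed with array weights, 919 with the lens covariate and 30 with the *Xist* covariate. The filter gave 378, cyclic loess 322, the trended and robust prior 401 and median centring 179. Fits without a single array gave 87 to 245. Leaving out *dmbo* replicates 1 and 2 gave 63, and leaving out *dmbo* replicates 1 and 4 gave 142. The share at an unadjusted p under 0.05 was 12.7% with array weights, 22% with the lens covariate and 4.69% with the *Xist* covariate, against 7.65%.

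Replicate numbers did not pair the arrays in replicates 1 to 3. There the correlations of same-numbered deviations were -0.029, -0.016 and 0.032, against up to 0.133, 0.171 and 0.318 with other numbers. *Dmbo* replicate 4 and WT replicate 4 did share deviations, at 0.425, against at most -0.087 with other numbers. The replicate block ended the call of *Sema7a* (adjusted p = 0.201 from limma) and of *Dpysl3* (0.172). Over all probe sets, 145 passed with this block and 221 without it.

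The sign turned only in genes whose adjusted p was above 0.9 in the main setting, and the cause was not tested. With the lens covariate the log2 fold change was -0.0796 in *Plxnb2*, 0.065 in *Nrp1*, -0.093 in *Plxna4*, -0.15 in *Sema3b*, 0.016 in *Sema6d*, -0.12 in *Plxnb3* and -0.011 in *Sema6a*. Without *dmbo* replicates 1 and 4 the log2 fold change was -0.0029 in *Plxnb2*, 0.017 in *Nrp1*, -0.033 in *Plxna4*, -0.056 in *Sema3b*, -0.046 in *Plxnb3* and -0.0041 in *Sema6a*. With the *Xist* covariate the log2 fold change was -0.0496 in *Plxna4*, -0.019 in *Plxna2*, -0.068 in *Nrp2*, -0.013 in *Plxnb3*, -0.066 in *Sema6a*, -0.024 in *Sema4f* and 0.016 in *Sema3d*. Without *dmbo* replicates 1 and 2 the log2 fold change was 0.012 in *Sema6d*, -0.013 in *Sema4f*, 0.0027 in *Plxna3* and 0.11 in *Sema3d*. Array weights gave -0.0059 in *Nrp2*, -0.0077 in *Plxnb3* and -0.041 in *Sema6a*, cyclic loess -0.0021 in *Plxnb3* and -0.0043 in *Sema4f*, and median centring -0.0031 in *Sema4f*. Without single arrays it lay between -0.018 and 0.12 in *Plxna4*, -0.018 and 0.093 in *Sema3b*, -0.0067 and 0.058 in *Plxna2*, -0.052 and 0.0053 in *Sema6d*, -0.032 and 0.0037 in *Sema6b*, -0.017 and 0.058 in *Nrp2*, -0.045 and 0.066 in *Plxnb3*, -0.027 and 0.0401 in *Sema6a*, -0.0063 and 0.026 in *Sema4f*, -0.043 and 0.018 in *Plxna3* and -0.074 and 0.093 in *Sema3d*. Taking the values from either deposited table gave no separate result, since both hold equal values.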
